A study of Mus musculus with 78 samples.

Results

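The mitochondrial genome of mouse cells carries 37 genes, and every gene whose name begins with mt- in the deposited expression tables belongs to this set: 37 of the 54446 genes in the RNA-seq tables. They comprise 13 mRNA genes, 2 rRNA genes and 22 tRNA genes. The heavy-strand group (28 genes, + strand of the reference) and the light-strand group (9 genes, - strand: mt-Nd6 and 8 tRNA genes) are transcribed in opposite directions. The rule used the names, not expression values.

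The study asked how loss of TRIM28, a co-repressor that silences endogenous retroviruses (ERVs), alters transcription in mouse embryonic stem cells (mESCs). The main experiment used TRIM28-FKBP V6.5 mESCs, in which a degron tag knocked into the TRIM28 gene lets the compound dTAG-13 (500 nM) trigger degradation of the protein. Groups of 3 libraries received DMSO or dTAG-13 for 2, 6, 24 or 96 h and were measured by poly(A)-selected RNA-seq in TPM, a level scaled to transcript length and to the total of each library. Groups of 3 libraries with DMSO or 2, 6 or 24 h of dTAG-13 were measured by TT-SLAM-seq, which counts RNA made during 15 min of labelling with 4-thiouridine, in FPKM, fragments scaled to gene length and depth. A derived line, here called shERV, carries doxycycline (Dox)-inducible short hairpin RNAs against ERVs. It was measured as ribosomal RNA-depleted total RNA after DMSO, 24 h of dTAG-13, or dTAG-13 with Dox, with 3 libraries each. In its rescue experiment the study expressed the hairpins for 24 h ahead of 24 h of TRIM28 degradation. The treatment label was used to group these libraries, because the protocol label mentions Dox for the DMSO libraries too. Parental V6.5 mESCs without the tag and DMSO-treated neural progenitor cells (NPCs, given as V6.5) had 3 poly(A) libraries each. The time-course cells were depleted of the irradiated fibroblasts they were expanded on. The labels of parental and shERV cells describe growth on feeders, and the study's methods state depletion for mESC RNA-seq in general.

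Mitochondrial DNA is transcribed by its own RNA polymerase, POLRMT, with the factors TFAM and TFB2M. Each strand yields a long polycistronic RNA, and excision of the tRNAs that lie between the other genes releases the mRNAs and rRNAs. The mRNAs encode subunits of respiratory complexes and of ATP synthase, most of them receive a short poly(A) tail after excision, and the mRNA of mt-Nd6, the lone protein-coding gene of the light strand, typically has none. Poly(A) selection therefore reads steady-state tailed RNA, while labelling reads recent synthesis. Reads in a tRNA gene can come from a mature tRNA, a precursor or an overlapping transcript, and these cannot be told apart here. The strand setting of the RNA-seq quantification is not given in the sources used here, so RNA of a gene and RNA antisense to it cannot be told apart either.

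Trim28 mRNA, whose level checks the labels only loosely because the tag acts on the protein, averaged 624 ± 2.28 TPM (SD, n = 3) in DMSO and 192 ± 10.2 TPM at 96 h. The summed level of 6 pluripotency markers was 2710 to 2840 TPM in DMSO, 1675 to 1758 TPM after 24 h and 257 to 307 TPM after 96 h. The 9 feeder fibroblast markers summed to 21.1 to 22.0 TPM in DMSO and 284 to 309 TPM at 96 h, with 5 and 1 of 9 below 1 TPM in every library. Their sum was 104 to 107 TPM in parental mESCs, 103 to 122 TPM across the shERV groups and 14.2 to 15.3 TPM in NPCs. Neural markers (5 genes) summed to 3198 to 3253 TPM in NPCs and to at most 83.0 TPM elsewhere. Relative depth ran from 0.333 to 1.67 times the median RNA-seq library, and the reads recovered from the FPKM ran from 6481999 to 24266191 per TT-SLAM-seq library. The study calls the replicates biological. Nothing states that they were separate cultures, so p-values measure the spread between these libraries, which may be technical.

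Part of the mitochondrial genome has a near-identical copy in the nucleus, which bears on what each assay can read. In the RefSeq GRCm38.p6 sequence (the build of mm10), 4650 bases at chr1:24611535-24616184 (- strand) match positions 6394 to 11042 of the 16299 base mitochondrial genome (chrM) in 3 identical stretches. At least 99% of 11 members lies inside these stretches: mt-Ts1, mt-Td, mt-Co2, mt-Tk, mt-Atp8, mt-Atp6, mt-Co3, mt-Tg, mt-Nd3, mt-Tr and mt-Nd4l. mt-Co1 (31.0%) and mt-Nd4 (63.6%) lie inside in part. The lines below show one of the breaks between stretches, at the start of mt-Nd3 (chrM:9459-9806), with the differing base in capitals. The mitochondrial sequence is chrM:9436-9486 (+ strand), the copy is chr1:24613092-24613142 (- strand), and the substitution is T9461C, counted from base 1 of chrM.

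mitochondrial genome at the start of mt-Nd3: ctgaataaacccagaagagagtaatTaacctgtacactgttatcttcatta

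chromosome 1 copy: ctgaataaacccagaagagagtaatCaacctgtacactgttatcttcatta

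In RNA-seq, 5 of the 7 annotated genes of the copy carried nearly the same TPM as their mitochondrial counterparts. The ratio of Gm10222 to mt-Nd4l had a median of 1.01 over the 30 libraries (range 1.01 to 1.01), and that of Gm28438 to mt-Nd3 a median of 1.02 (range 1.01 to 1.04). For the members that lie inside the copy in part the ratios were lower, with medians of 0.674 for Gm28439 to mt-Nd4 and 0.486 for Gm29216 to mt-Co1. RNA of a member inside the copy and of its copy gene cannot be told apart in those tables. In TT-SLAM-seq the 6 heavy-strand mRNA genes inside the copy held 0 to 6.25 FPKM, from 0 to 27 reads, in all 12 libraries. The other 6 (mt-Nd1, mt-Nd2, mt-Co1, mt-Nd4, mt-Nd5 and mt-Cytb) held 356 to 5694 FPKM, from 5148 to 99456 reads. The copy's own genes held 0 to 7.37 FPKM there. The low values in this block move with identity to chromosome 1, and the part of read placement in them was not tested.

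Steady-state levels under DMSO differed widely among the members. The highest was mt-Co1 (chrM:5328-6872), which encodes a core subunit of cytochrome c oxidase, at 13198, 12061 and 15187 TPM. mt-Nd1, a subunit of complex I, held 7917, 7370 and 10661 TPM. The lowest mRNA levels were those of mt-Nd3 (707, 746 and 742 TPM) and mt-Nd6 (765, 779 and 623 TPM), which overlapped each other. Between mt-Nd1 and mt-Nd3 the mean levels fell in the order mt-Atp6 (6820 TPM), mt-Cytb (6195), mt-Co2 (5562), mt-Atp8 (5416), mt-Co3 (4088), mt-Nd2 (4067), mt-Nd4 (3554), mt-Nd5 (2877) and mt-Nd4l (2570). The rRNAs, mt-Rnr1 and mt-Rnr2 of the small and large mitochondrial ribosomal subunits, averaged 376 and 873 TPM. Most tRNA genes lay far below, from 0.463 TPM for mt-Tg to 32.4 TPM for mt-Tm, but mt-Tl1 (857 TPM) and mt-Ts1 (784 TPM) were at the level of mt-Nd3. The position of mt-Ts1 (chrM:6870-6938, - strand) is where the mt-Co1 mRNA runs on past its coding end on the other strand.

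Newly made RNA had a different order. Under DMSO mt-Rnr1 was highest, at 6304, 6177 and 5178 FPKM, followed by mt-Rnr2 (mean 3328), mt-Tl1 (3164), mt-Nd1 (2524) and mt-Nd2 (2003). mt-Cytb averaged 1176 FPKM, mt-Nd5 917, mt-Nd4 448 and mt-Co1 424. mt-Nd6, counted by strand in this assay, held 502, 368 and 378 FPKM, which overlapped mt-Co1 at 492, 356 and 424 FPKM. The sources state that reads matching ribosomal RNA were removed before quantification, yet the mitochondrial rRNAs kept the highest levels. mt-Ts1 was listed at 0 in all 12 libraries.

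**Figure D1:**
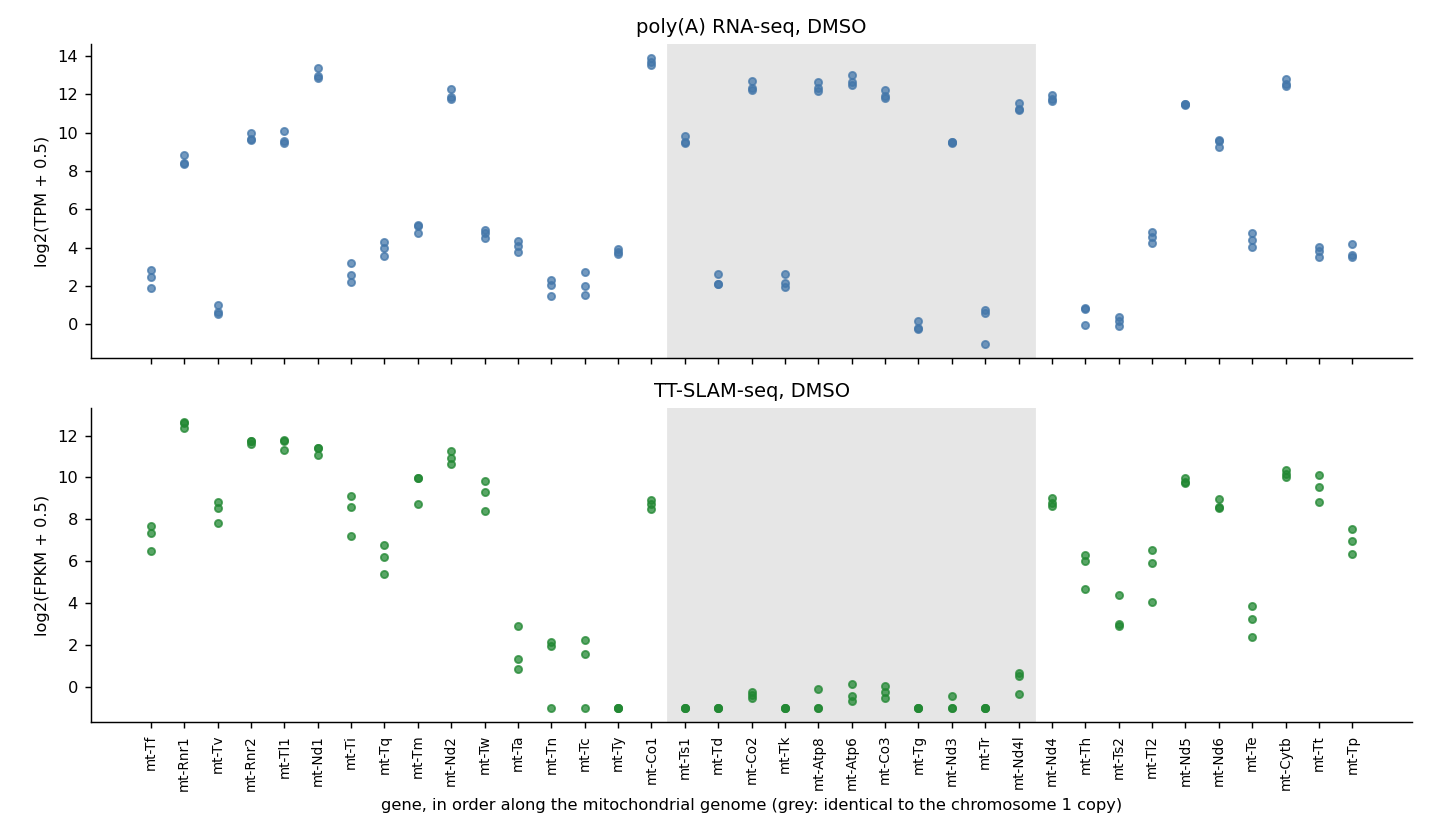
Level of each of the 37 mitochondrial genes under DMSO, in order along the mitochondrial genome, as log2(TPM + 0.5) in poly(A) RNA-seq (top) and log2(FPKM + 0.5) in TT-SLAM-seq (bottom); each point is 1 of 3 libraries. In the grey block, which is identical to the chromosome 1 copy, mRNA genes such as mt-Co2 (mean 5562 TPM) are high above and near the floor below (mean 0.269 FPKM).

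The members' share of all TPM was higher after 6 h and 24 h of TRIM28 degradation than under DMSO, and lower after 96 h. It was 6.44, 6.00 and 7.90% under DMSO (mean 6.78 ± 1.00%, SD, n = 3), 7.50, 8.33 and 7.33% at 2 h, and 11.9, 8.78 and 11.3% at 6 h. At 24 h it was 9.39, 11.1 and 10.4%, and at 96 h 3.76, 3.65 and 3.65%. The 2 h libraries overlapped DMSO, every 6 h and 24 h library was above DMSO, and every 96 h library was below. The mean was 1.57 times that of DMSO at 6 h (difference 3.85 percentage points, SE 1.10), 1.52 times at 24 h (3.50, SE 0.753) and 0.544 times at 96 h (-3.10, SE 0.576). An exact two-sided permutation test gave p = 0.1 for each of these, the smallest that 3 against 3 libraries allow, and p = 0.3 at 2 h. Over the 12 comparisons of this share the Benjamini-Hochberg adjusted values of these exact tests were 0.15 and 0.327. A share is relative, so more mitochondrial RNA per cell and less other RNA cannot be told apart.

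In TT-SLAM-seq the share of all FPKM was 12.5, 11.4 and 9.30% under DMSO and 13.7, 14.0 and 10.7% after 2 h of dTAG-13. The 6 h libraries stood at 16.4, 23.5 and 13.3% and the 24 h libraries at 20.5, 19.7 and 26.6%. All 6 h and 24 h libraries exceeded DMSO, with mean ratios of 1.60 and 2.01 (exact permutation p = 0.1 for each; 0.3 at 2 h). The size of the ratio depended on the denominator. A pair of nuclear structural RNA genes, Gm26917 and Gm42418, took 59.6% of FPKM in DMSO libraries, falling to 40.9% by 24 h. With structural RNA genes left out the share was 28.8% under DMSO and 33.7, 37.2 and 39.0% after 2, 6 and 24 h, a ratio of 1.36 for the last. As a share of protein-coding FPKM the mRNA members held 30.2, 36.8 and 33.8% at these times, the last pair being 1.36 and 1.26 times the DMSO mean. With either denominator no 2 h library overlapped DMSO (exact permutation p = 0.1). As a share of recovered reads the members held 2.22, 2.02 and 1.86% under DMSO and 2.76, 2.37 and 4.11% at 24 h (ratio 1.52, exact permutation p = 0.1). The 24 h library with 26.6% of FPKM and 4.11% of reads was the shallowest, at 6481999 reads, and much of this ratio rests on it. The 6 h reads share was 2.59, 4.20 and 2.16%, with 1 library among the DMSO values (ratio 1.47, exact permutation p = 0.2).

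In the shERV line the share was lower after the same 24 h. The share was 3.33, 3.15 and 3.03% under DMSO, 2.69, 2.54 and 2.75% with dTAG-13, and 3.06, 3.06 and 2.91% with dTAG-13 and Dox. dTAG-13 libraries lay below all others, at 0.838 times the DMSO mean (difference -0.515 percentage points, SE 0.108, exact permutation p = 0.1). Part of this was rRNA, which held 0.361, 0.0232 and 0.0404% of TPM in the DMSO libraries. With the rRNA genes left out the ratio was 0.872 (difference -0.389 percentage points, SE 0.0827, exact permutation p = 0.1), again with no overlap. With Dox the share was 1.13 times that of dTAG-13 alone (p = 0.1, exact permutation), and it overlapped DMSO (0.949 times, p = 0.3, exact permutation). By coverage times gene span in place of TPM, every Dox library lay below DMSO (0.902 times, p = 0.1, exact permutation). Parental mESCs averaged 4.77 ± 0.0667% (0.703 times the DMSO mESCs, no overlap) and NPCs 7.44 ± 0.112% (1.10 times, overlapping). Their exact permutation p were 0.1 and 0.4, and the NPC difference changed sign when coverage times gene span replaced TPM.

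**Figure D2:**
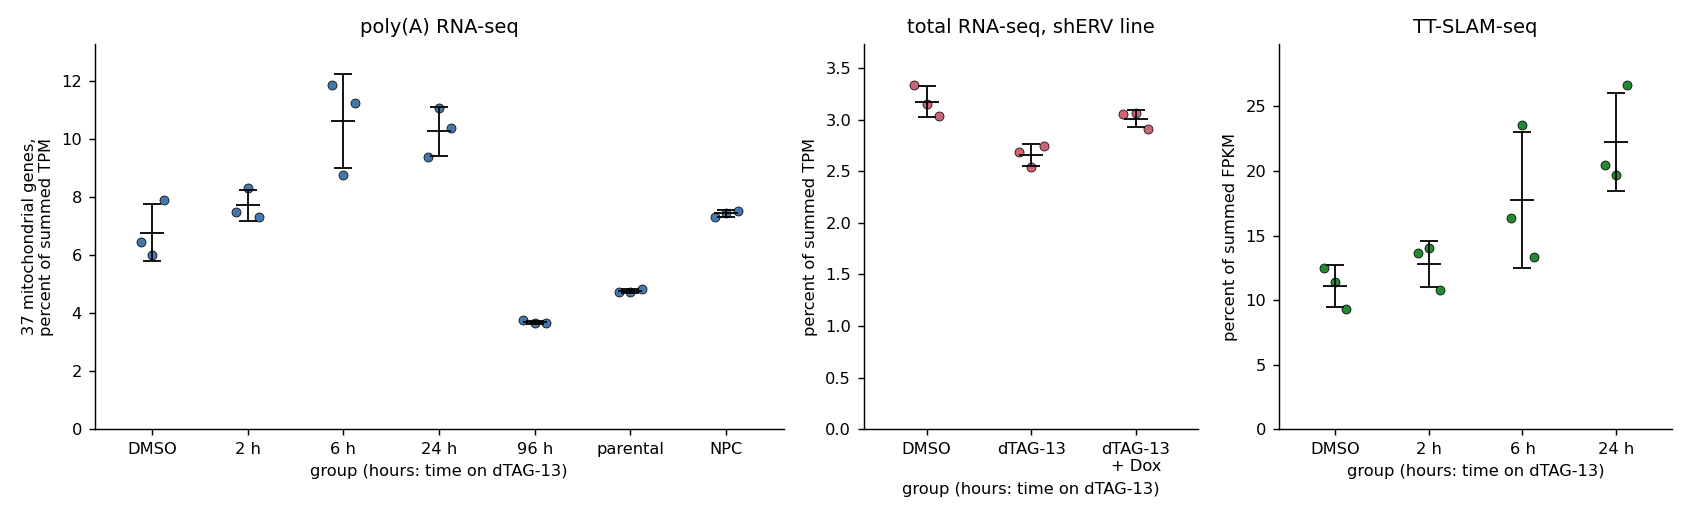
Share of the mitochondrial genes in each library, as percent of summed TPM (RNA-seq) or summed FPKM (TT-SLAM-seq), by group; points are libraries, bars are mean and SD of 3. In poly(A) RNA-seq the 6 h and 24 h libraries (8.78 to 11.9%) lie above DMSO (6.00 to 7.90%) and the 96 h libraries (3.65 to 3.76%) below it.

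After 2 h of dTAG-13, no mRNA was called but several tRNA genes were. In a limma fit on log2(TPM + 0.5), with Benjamini-Hochberg adjustment over 17922 genes and calls at adjusted p below 0.05, 13 of 37 members were higher and 1 was lower. Over all genes 8.25% were called higher and 7.02% lower. Among mRNAs 0 of 13 were called (differences -0.09 to 0.29 on the log2 scale). Of the 9 light-strand genes 7 rose, with a median of 1.08. Among the 14 heavy-strand tRNA genes 5 rose and 1 fell (median 0.11). mt-Te, the glutamate tRNA gene beside mt-Nd6, was at 20.4, 15.8 and 27.1 TPM in DMSO and 39.8, 42.9 and 41.0 TPM at 2 h (0.98, SE 0.21, adjusted p = 0.00609). These levels do not overlap. mt-Rnr1 rose from 344, 334 and 451 to 643, 738 and 647 TPM (0.85, SE 0.16, adjusted p = 0.00355). The lone fall was mt-Tl2, a leucine tRNA gene, from 27.5, 18.4 and 22.8 to 6.86, 6.16 and 4.02 TPM (-1.93), and it was at 40.8, 27.6 and 42.8 TPM at 6 h.

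At 6 h the rise was broad, with 29 of 37 members higher and 0 lower, beside 18.4% and 15.5% of all genes. Of the 12 heavy-strand mRNAs 11 rose (median 0.67, while the median of all genes was 0.03), both rRNAs rose, and so did 8 of 9 light-strand genes and 8 of 14 heavy-strand tRNA genes. mt-Cytb, the cytochrome b subunit of complex III, went from 5896, 5502 and 7188 TPM to 11406, 8126 and 10602 TPM (0.69, SE 0.12, adjusted p = 0.000957). mt-Rnr1 reached 859, 1196 and 1466 TPM (1.62, SE 0.16). In both genes every 6 h library was above every DMSO library. The exception among the mRNAs was mt-Nd3, at 720, 683 and 745 TPM against 707, 746 and 742 TPM. Values for mt-Tf, the phenylalanine tRNA gene next to mt-Rnr1, were 3.17, 4.97 and 6.56 TPM in DMSO, 15.8, 20.2 and 21.7 TPM at 6 h and 2.35, 2.71 and 2.76 TPM at 24 h. It thus rose by 1.91 at 6 h and lay 0.75 below DMSO at 24 h on the log2 scale, both called.

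By 24 h, 28 members were higher and 2 lower, beside 42.9% and 25.0% of all genes. The median member was at 0.78, against 0.13 for all genes. mt-Co1 had the largest mRNA change: 24603, 27994 and 25799 TPM, all well above its DMSO levels (1.94 times the mean; log2 0.96, SE 0.10, adjusted p = 9.38e-07). mt-Nd6 reached 1067, 1304 and 1445 TPM (0.81, SE 0.12). All 9 light-strand genes rose, by 0.78 to 1.30. Among the 14 heavy-strand tRNA genes 8 rose and 1 fell (median 0.82). The mRNAs no longer moved as 1 group: mt-Cytb was back at 6509, 7924 and 7533 TPM, overlapping DMSO (0.25, adjusted p = 0.0931), and mt-Nd1 was at 8284, 9826 and 9393 TPM, also overlapping. mt-Nd3, a complex I subunit inside the block shared with chromosome 1, fell to 545, 532 and 583 TPM (-0.40, SE 0.04, adjusted p = 8.9e-07). mt-Td, the aspartate tRNA gene between mt-Ts1 and mt-Co2, showed the largest rise of all members, from 3.85, 3.84 and 5.66 to 22.3, 17.9 and 14.8 TPM (1.93), and returned to 4.78, 3.27 and 3.94 TPM at 96 h.

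At 96 h mt-Nd6, the lone mRNA of the light strand, moved against the 12 heavy-strand mRNAs, while on both strands more tRNA genes rose than fell. As given above, the mRNA of mt-Nd6 typically has no tail, and RNA antisense to it cannot be told apart here. All 12 heavy-strand mRNAs fell (-1.19 to -0.59, median -0.94), as did both rRNAs, while mt-Nd6 rose. Among the 8 light-strand tRNA genes 6 rose and 1 fell (median 1.46). Among the 14 heavy-strand tRNA genes 8 rose and 1 fell (median 0.61). In total 15 members were higher and 16 lower, beside 42.9% and 37.4% of all genes. mt-Cytb fell to 3063, 2931 and 2938 TPM (-1.05, SE 0.12, adjusted p = 1.94e-06) and mt-Co1 to 7251, 6926 and 6968 TPM (-0.93, SE 0.10). mt-Nd6, encoded on the opposite strand with mt-Te between it and mt-Cytb, rose to 2118, 2007 and 1956 TPM (1.49, SE 0.12, adjusted p = 3.38e-08), 2.81 times its DMSO mean. None of these overlapped DMSO. Within the summed TPM of the 13 mRNAs, mt-Nd6 made up 1.24, 1.36 and 0.827% under DMSO and 6.06, 5.91 and 5.77% at 96 h. This is a ratio of 5.17 (exact permutation p = 0.1) that does not depend on how nuclear genes scaled. At 24 h it was 1.30%.

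The largest rises at 96 h were in tRNA genes around mt-Nd6 and just before mt-Nd5. mt-Te went from 21.1 ± 5.68 TPM to 450.1, 402 and 430 TPM (4.34, SE 0.21, adjusted p = 6.76e-11). mt-Th, a histidine tRNA gene, went from 0.489, 1.28 and 1.22 TPM to 53.6, 58.2 and 56.6 TPM (5.29, SE 0.27). mt-Ts2, a serine tRNA gene directly after it, went from 0.460, 0.808 and 0.626 TPM to 50.7, 50.8 and 50.3 TPM (5.51, SE 0.33). Both were near the 1 TPM filter in every other group of the time course, at no more than 2.79 TPM, so their 96 h levels stood alone. The light-strand genes mt-Tn (asparagine) and mt-Tc (cysteine) rose to 41.5, 45.3 and 49.1 TPM and to 42.6, 40.3 and 47.4 TPM (3.57 and 3.35). mt-Ts1, the light-strand gene under the mt-Co1 end, fell with the heavy-strand mRNAs (-0.52), and mt-Tq was not called (-0.04).

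The sequences of the members with the largest 96 h rises are shown because they lie directly beside other genes, which bears on the reading of them. They are from RefSeq GRCm38.p6. mt-Th (chrM:11546-11612, + strand) and mt-Ts2 (chrM:11613-11671, + strand) have the anticodon in capitals. The third line runs from mt-Te into mt-Nd6 (chrM:14041-14139, - strand) with the first codon of mt-Nd6 in capitals.

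mt-Th: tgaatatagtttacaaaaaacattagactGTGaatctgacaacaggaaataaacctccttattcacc

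mt-Ts2: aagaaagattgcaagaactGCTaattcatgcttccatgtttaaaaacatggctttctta

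mt-Te and the start of mt-Nd6: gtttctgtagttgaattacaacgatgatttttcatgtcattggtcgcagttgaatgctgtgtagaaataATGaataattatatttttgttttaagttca

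All of mt-Th and 50.8% of mt-Ts2 lie in a stretch of 129 bases that is identical at chr2:69355538-69355666 (- strand), where no gene is annotated within 2000 bases. RNA from there and from the mitochondrial genes cannot be told apart. mt-Tn and mt-Ty (all of each), mt-Tc (80.3%) and mt-Ta (66.7%) are also shared with identical nuclear stretches of at least 100 bases. mt-Nd6, mt-Te, mt-Tp and mt-Tq share none, so the rises of mt-Nd6, mt-Te and mt-Tp (1.95) do not lie in such sequence. The 96 h cells also had the feeder marker sum of 284 to 309 TPM and the pluripotency sum of 257 to 307 TPM given above, and the part of cell makeup in these changes was not tested. The nuclear structural RNA genes Gm26917 and Gm42418 held 0.0679, 0.0707 and 0.0739% of TPM at 96 h, against 0.541, 0.621 and 0.437% under DMSO. Their shares at 2, 6 and 24 h overlapped DMSO. The part of structural RNA kept in the libraries in the 96 h changes was not tested.

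**Figure D3:**
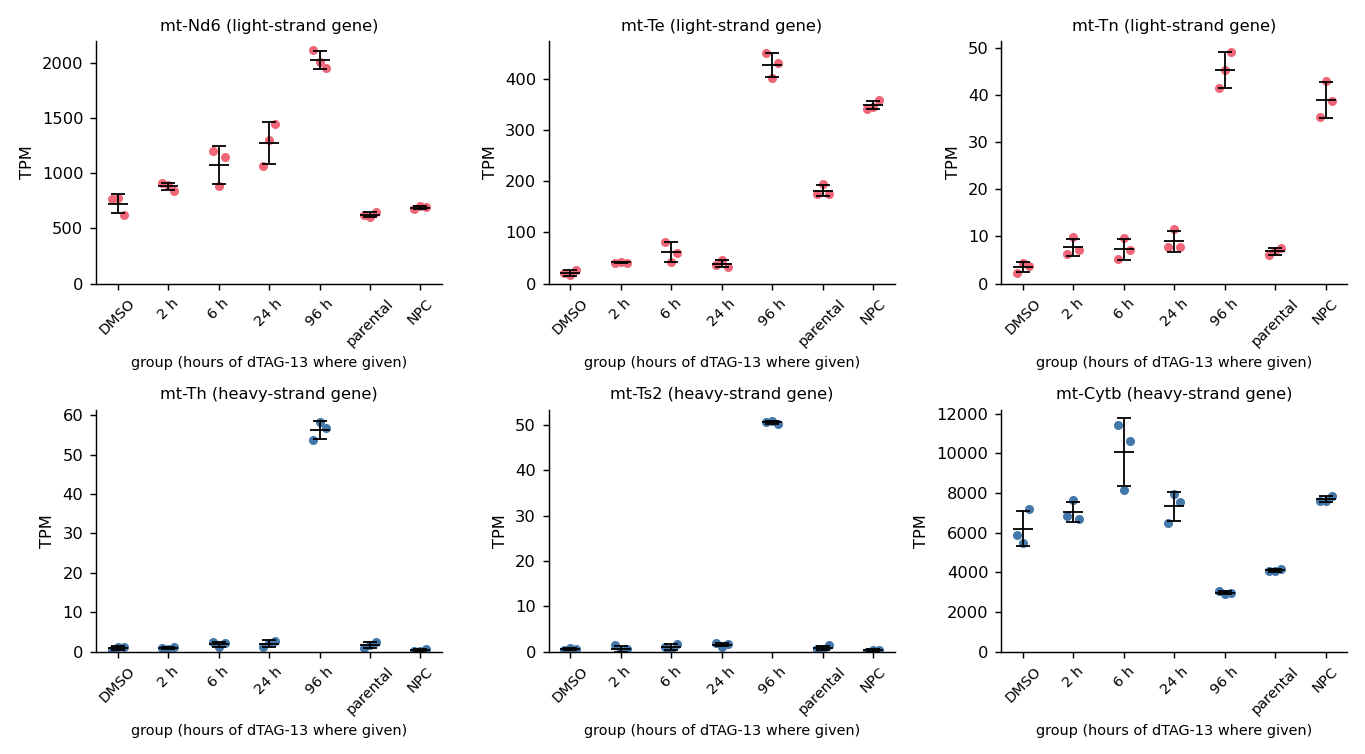
TPM of 6 mitochondrial genes in each poly(A) RNA-seq library of the time course, parental mESCs and NPCs; points are libraries, bars are mean and SD of 3, and each panel has its own axis from 0. mt-Nd6, mt-Te, mt-Tn, mt-Th and mt-Ts2 are highest at 96 h, where mt-Cytb is lowest (2931 to 3063 TPM), and mt-Te is also high in NPCs (342 to 358 TPM).

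**Figure D4:**
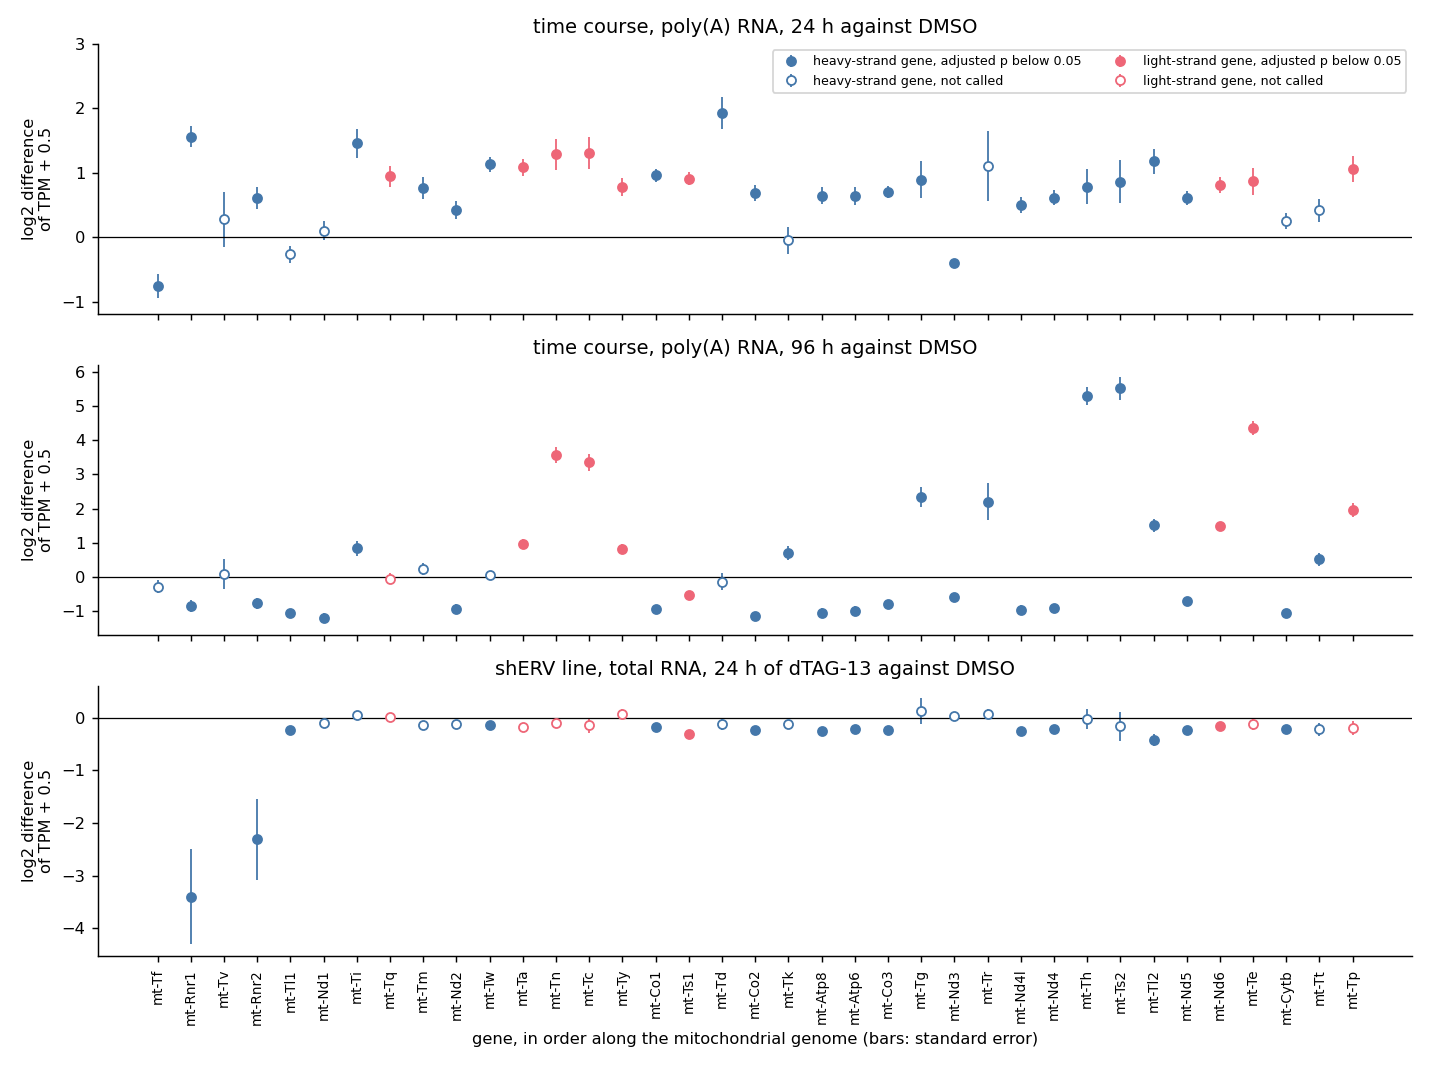
Fitted log2 difference of TPM + 0.5 for each mitochondrial gene, in genome order, at 24 h and 96 h of the time course and at 24 h in the shERV line, each against its own DMSO; bars are standard errors and filled points have adjusted p below 0.05. At 24 h most members lie above 0 (28 called higher). At 96 h the heavy-strand mRNAs lie below 0, while most light-strand genes and 8 called heavy-strand tRNA genes lie above. In the shERV line called members lie below 0 (16).

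Fewer members were called in newly made RNA, where the libraries of a group spread more. TT-SLAM-seq tested 32 members among 13357 genes; mt-Ts1, mt-Td, mt-Tk, mt-Tg and mt-Tr stayed below the filter of 0.5 FPKM in 3 libraries. At 2 h limma called 0 members in either direction, beside 1.58% of all genes higher and 1.97% lower, and 0 had an unadjusted p below 0.05. At 6 h the count was 1 higher (mt-Ty) and 0 lower, beside 7.82% and 1.27%, with 7 members at an unadjusted p below 0.05. mt-Ty had 0 reads in every DMSO and 2 h library and 2, 1 and 2 reads at 6 h. It could pass the filter only through the 6 h and 24 h groups, so its rise was built into the filter. At 24 h it was 9 higher and 0 lower, beside 32.3% and 5.59%. The median member at 24 h was at 0.70. The 24 h count was 0 with a filter on a mean of 5 FPKM and 17 when voom was run on the recovered reads.

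The 24 h calls in labelled RNA fell mostly in the block shared with chromosome 1, on few reads. mt-Co2, for cytochrome c oxidase subunit II, had 1, 3 and 2 reads under DMSO and 24, 22 and 25 reads at 24 h (1.93). mt-Nd4l had 2, 4 and 1 reads and then 27, 23 and 12 (2.04). mt-Ty, a light-strand tyrosine tRNA gene, had 0 reads in every DMSO library and 3, 4 and 2 reads at 24 h. mt-Co2, mt-Atp8 and mt-Nd3 passed the filter only with the 24 h group counted, and mt-Ty only through the 6 h and 24 h groups. A difference in these genes was thus at least in part built into the filter. The well-covered calls were mt-Nd4, from 513, 441 and 391 to 742, 611 and 872 FPKM (0.72, adjusted p = 0.0393), and mt-Nd6, from 502, 368 and 378 to 618, 537 and 744 FPKM (0.61, SE 0.19, adjusted p = 0.0324). Both had all 24 h libraries above DMSO, and both calls ended when the low-value filter was changed (to none or to a mean of 5 FPKM), when libraries were centred on their median gene, and without DMSO replicate 2 or 3 or 24 h replicate 1 or 3 (adjusted p = 0.0719 to 0.124). The mt-Nd4 call also ended without any one of the 2 h libraries (adjusted p = 0.0519 to 0.0555). mt-Cytb went from 1323, 1158 and 1046 to 1754, 1435 and 2219 FPKM (0.60, adjusted p = 0.0534) and mt-Co1 from 492, 356 and 424 to 512, 458 and 1009 FPKM (0.56, adjusted p = 0.194). mt-Te had 14.1, 4.67 and 9.03 FPKM and then 18.2, 12.9 and 22.7 FPKM (adjusted p = 0.0542). Replicate 2 at 6 h and replicate 3 at 24 h were the highest in most members. Replicate 3 at 24 h was also the shallowest library, at 6481999 reads against 24266191 and 20528257 in replicates 1 and 2. Among labelled mRNAs mt-Nd6 made up 5.26% under DMSO, 3.41% at 6 h and 5.24% at 24 h, and 96 h was not measured by this assay.

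In the shERV line no member was called higher after 24 h, and apart from the rRNAs the differences were small. Of 35 members tested among 16166 genes (mt-Tf and mt-Tv were not), limma called 0 higher and 16 lower with dTAG-13 against DMSO, beside 41.2% and 12.8% of all genes. The median member was at -0.17, against 0.14 for all genes. Of the 12 heavy-strand mRNAs 9 fell. mt-Co1 went from 5995, 6283 and 5970 TPM to 5377, 5096 and 5551 TPM (-0.19, SE 0.05, adjusted p = 0.0115), mt-Cytb from 2314, 2381 and 2243 to 2045, 1894 and 2022 TPM (-0.22, SE 0.05, adjusted p = 0.00345), and mt-Nd6 from 655, 666.0 and 635 to 598, 524 and 620 TPM (-0.17, adjusted p = 0.0255). Each dTAG-13 library lay below each DMSO library. The mt-Co1 call ended without dTAG-13 replicate 2 (adjusted p = 0.052). With every library centred on its median gene, 26 members were called, and with no filter on low values 10.

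With Dox in addition to dTAG-13, 12 members were higher than with dTAG-13 alone and 0 were lower, beside 17.5% and 29.3% of all genes. mt-Co1 was at 6334, 6198 and 6207 TPM (0.23, SE 0.05, adjusted p = 0.00478), mt-Cytb at 2345, 2326 and 2181 TPM (0.20) and mt-Nd6 at 651, 653 and 636 TPM (0.16, adjusted p = 0.0398). Against DMSO these libraries had 0 members called higher and 0 lower by limma, beside 0.0495% and 0.0124% of all genes, with 2 at an unadjusted p below 0.05 (mt-Rnr1 and mt-Rnr2). A missed threshold does not show equal levels.

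The 24 h differences of both experiments were compared with an interaction term over 37 members and 17653 genes. The shERV difference was lower in 28 members and higher in 1, beside 25.2% and 26.2% of all genes. For mt-Co1 the interaction was -1.15 (SE 0.13, adjusted p = 1.66e-05) and for mt-Nd6 -0.98 (SE 0.15), and mt-Nd3 was the higher one (0.44). The experiments differ in the RNA kit, the culture and the line, and these cannot be told apart from each other. Their DMSO cells differed too. The pluripotency markers summed to 1190 to 1325 TPM in shERV DMSO, against 2710 to 2840 TPM in time-course DMSO. The feeder markers summed to 107 to 115 TPM against 21.1 to 22.0 TPM.

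The rRNAs need a separate reading in this line, because the kit removes ribosomal RNA. mt-Rnr1 was at 2064, 122 and 235 TPM under DMSO, 16.4, 101 and 29.3 TPM with dTAG-13, and 43.4, 19.8 and 13.1 TPM with Dox. Its called fall (-3.40, SE 0.90, adjusted p = 0.0071) goes with a DMSO group in which replicate 1 stood far above the others. The same library held 1549 TPM of mt-Rnr2, against 109 and 169 TPM in the others, and 11.7% of TPM in Gm26917 and Gm42418, against 7.70 and 7.86%. Without it mt-Rnr1 was at -2.20 (adjusted p = 0.0249), and mt-Rnr2 went from a called -2.31 (adjusted p = 0.0237) to -1.14 (adjusted p = 0.0542). The mt-Rnr2 call also ended without dTAG-13 replicate 1 (adjusted p = 0.067) or replicate 3 (adjusted p = 0.0684). The part of rRNA removal in these values was not tested.

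Parental mESCs and NPCs were set against the DMSO mESCs among 17458 genes, with 36 members tested (not mt-Ts2). mt-Tr passed the filter on low values only with the NPC libraries counted, so its rise there (2.03) was at least in part built into the filter. mt-Th passed only with the parental libraries counted and was not called in them (0.59, adjusted p = 0.174). Parental mESCs had 14 members higher and 15 lower, beside 25.0% and 41.0% of all genes. Of the 12 heavy-strand mRNAs 11 were lower (median -0.55) and mt-Nd3 was higher (0.17). Both rRNAs were higher (mt-Rnr1 0.70 and mt-Rnr2 0.68), and the rRNA share of TPM was 1.60 times that of DMSO. mt-Co1 averaged 8563 ± 65.4 TPM (-0.65, SE 0.07), with all libraries below DMSO. Of the light-strand genes 5 were higher and 1, mt-Nd6, was lower, at 624, 606 and 646 TPM (-0.20, adjusted p = 0.0372), which overlapped DMSO. Among the 13 heavy-strand tRNA genes tested 6 were higher and 3 lower. mt-Te was at 175, 194 and 175 TPM (3.10, SE 0.15, adjusted p = 1.6e-07) and mt-Tk, a lysine tRNA gene, at 35.7, 32.8 and 36.7 TPM against 3.98, 3.36 and 5.60 TPM (2.91). mt-Tl2 was at 2.65 ± 0.804 TPM (-2.91), with no overlap with DMSO. The parental libraries also had the feeder marker sum of 104 to 107 TPM, against 21.1 to 22.0 TPM in DMSO. The part of cell makeup in the parental differences was not tested.

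NPCs had 21 members higher and 3 lower, beside 49.5% and 39.5% of all genes. The light-strand tRNA genes were among the largest rises: 7 of the 9 light-strand genes were higher (median 2.61), with mt-Te at 342, 346 and 358 TPM (4.05, SE 0.15) and mt-Tn at 35.3, 43.0 and 38.8 TPM (3.36). mt-Nd6 itself, at 674, 700 and 693 TPM, overlapped DMSO and was not called (-0.06, adjusted p = 0.448). Among the 13 heavy-strand tRNA genes tested 9 were higher and 2 lower (median 1.45). mt-Tv, the valine tRNA gene between the rRNAs, went from 0.936, 1.54 and 1.07 TPM to 18.4, 23.0 and 17.0 TPM (3.57). 4 of the 12 heavy-strand mRNAs were higher, among them mt-Nd3 at 1140, 1131 and 1102 TPM (0.62) and mt-Cytb at 7599, 7579 and 7851 TPM (0.32), and 0 were lower. With each library centred on its median gene the NPC count became 14 higher and 13 lower. mt-Te was thus far above DMSO in 96 h cells, parental mESCs and NPCs, which are set against the same DMSO libraries. The 3 groups were not tested against each other. mt-Th was at 0.185, 0.0836 and 0.720 TPM in NPCs (-0.88).

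Nuclear genes that serve the mitochondrial genome were read from lists of known factors in the same fits. Each count reads against the share of all genes: 8.25% higher and 7.02% lower at 2 h, 18.4% against 15.5% by 6 h, 42.9% against 25.0% by 24 h, and 42.9% against 37.4% by 96 h. Of 9 genes of the mitochondrial transcription machinery 0 were higher and 1 lower at 2 h, and 1 was higher and 1 lower at 6 h. The 24 h counts were 1 higher and 6 (66.7%) lower, and the 96 h counts 0 higher and 8 lower (88.9%, median -0.34). The lower gene at 2 h was Tefm, the mitochondrial elongation factor (-0.51, adjusted p = 0.000516), and it stayed lower at 24 h (-0.79, SE 0.07). Of 18 genes of RNA processing and stability, 2 (11.1%) were higher and 13 (72.2%) lower at 24 h (median -0.46), and 2 and 15 (83.3%) at 96 h (median -0.88). Elac2, which cuts the 3′ ends of tRNAs, fell by 1.15 at 24 h, and Fastkd5, which takes part in processing of mitochondrial mRNAs, fell by 1.01. Slirp, an RNA-binding protein that stabilises mitochondrial mRNAs, was at -0.20 at 24 h (adjusted p = 0.22) and fell by 1.36 at 96 h.

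Of 9 genes of mitochondrial DNA maintenance 6 (66.7%) were higher and 2 (22.2%) lower at 24 h, beside 42.9% and 25.0% of all genes. At 96 h 3 (33.3%) were higher and 5 (55.6%) lower, beside 42.9% and 37.4%. Polg, the catalytic subunit of the mitochondrial DNA polymerase, rose by 0.79 (SE 0.07) and 0.91, and its accessory subunit Polg2 rose by 0.75 at 24 h. Ssbp1, the single-stranded DNA-binding protein, and Mgme1, an exonuclease, fell by 1.48 and 1.36 at 96 h. Of 5 regulators of mitochondrial biogenesis 0 were higher and 2 (40.0%) lower at 24 h, beside the same shares of all genes, and 1 (Esrra, a nuclear receptor, 1.28) was higher and 4 were lower at 96 h.

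The nuclear partners of the mitochondrially encoded proteins showed small median differences. Of 80 nuclear respiratory chain genes 1 (1.25%) was higher and 50 (62.5%) lower at 6 h (median -0.19), beside 18.4% and 15.5% of all genes. The 24 h counts were 6 (7.50%) and 57 (71.2%), with a median of -0.21, beside 42.9% and 25.0%. The 96 h counts of 25 (31.2%) and 28 (35.0%), with a median of -0.04, stood beside 42.9% and 37.4% of all genes. Of 78 mitochondrial ribosomal protein genes 2 (2.56%) were higher and 26 (33.3%) lower at 6 h. At 24 h 2 were higher and 64 (82.1%) lower (median -0.41), and after 96 h 9 (11.5%) and 55 (70.5%) were (median -0.42), beside the same shares of all genes. At 6 h and 24 h most mitochondrially encoded mRNAs were thus called higher, while in these 2 nuclear lists more genes were called lower than higher. In the shERV line dTAG-13 gave 22 higher (28.2%) and 2 lower (2.56%) of 78 respiratory chain genes, both below the 41.2% and 12.8% of all genes. Of 78 ribosomal protein genes 4 (5.13%) were higher and 13 (16.7%) lower. There Elac2 was at -0.31 and Polg at 0.33 with dTAG-13 against DMSO, and 0.34 and -0.28 with Dox against dTAG-13 alone, all called. With Dox against DMSO 0 genes of these 6 lists were called in either direction by limma.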

How the data were processed

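RNA-seq was measured in 30 libraries and TT-SLAM-seq in 12, of 78 samples. Groups followed the treatment, time and cell type labels.

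For RNA-seq, the authors trimmed reads (cutadapt 2.4), aligned them to mm10 (STAR 2.7.5a) and quantified genes per library with StringTie 2.0.6, and deposited TPM, FPKM and mean read coverage per gene. For TT-SLAM-seq, per the study's methods, the authors removed ribosomal RNA reads, mapped the rest with SLAM-DUNK, counted reads with T-to-C conversions by strand over GENCODE genes and deposited FPKM. The strand option, annotation release and treatment of multiply mapped reads for RNA-seq are not given in the sources used here. The deposited ChIP-seq peak lists, called per library by the authors with MACS2, give a fold enrichment and a -log10 p; they were used only to count peaks on the mitochondrial genome.

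Gene IDs listed more than once (10 to 22 per table) were summed. TT-SLAM-seq values were whole multiples of 1 read within 0.1 once multiplied by gene span, which gave read numbers. Log2(TPM + 0.5) or log2(FPKM + 0.5) of genes with at least 1 TPM (0.5 FPKM) in at least 3 libraries was fitted per experiment with limma 3.58.1 (lmFit, eBayes with trend; R 4.3.3), with Benjamini-Hochberg adjustment over all genes tested and a threshold of 0.05. Every adjusted p is from limma, and fold changes on this scale understate those of low genes. Shares were compared by exact two-sided permutation tests (scipy 1.17.1), for which 3 against 3 libraries cannot go below 0.1. Differences are on the log2 scale unless a unit is given, and SDs are over 3 libraries.

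Sequences and identical stretches of at least 100 bases were read from RefSeq GRCm38.p6, and all 37 genes have the same position in GENCODE vM21. No pair of replicates within a group held identical values. The scripts were tested on simulated data.

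The set of members and the lists were taken up with earlier results of these data known, although the rule for members uses names only. All mt- genes may be named. Of nuclear genes, Trim28 and up to 3 rises and 3 falls per comparison with adjusted p below 0.05, from the lists of transcription, RNA processing, DNA maintenance and biogenesis, may be named, and values for these genes at other times were added for comparison. The copy genes Gm10222 and Gm28438, and Gm26917 and Gm42418, were named for their part in the counting after values were seen. The FPKM columns of the RNA-seq tables, ChIP-seq signal and single-cell data were not used here. Alternatives covered pseudocount, filter, scaling, denominator, replicate block, recovered reads and leaving out libraries.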

Additional observations from a re-analysis of the deposited data

Results flagged for a closer look

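The 24 h response to dTAG-13 differed between the experiments by the test of the interaction (limma, Benjamini-Hochberg over 17653 genes). Of 37 members 28 had a lower difference in the shERV line than in the time course and 1 had a higher one. The interaction was -1.15 for mt-Co1, -0.98 for mt-Nd6, -4.96 for mt-Rnr1 and -2.92 for mt-Rnr2, and 0.44 for mt-Nd3. The share of summed TPM moved by 3.50 percentage points in the time course and by -0.515 in the shERV line. The difference between these shares was not tested, and every dTAG-13 library lay above DMSO in the first and below it in the second. The time course is poly(A) RNA and the shERV line total RNA depleted of ribosomal RNA, and these kits cannot be told apart from the lines and their culture.

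Peaks on the mitochondrial genome appeared in 2 of the 20 deposited ChIP-seq peak lists. Both were MED23 libraries after 24 h of dTAG-13, with 2 peaks in replicate 1 and 5 in replicate 2, while both DMSO MED23 libraries had 0. Their fold enrichment was 1.59 to 2.07, lower than that of over 99.9% of the peaks of the same libraries. The treated libraries had 15335 and 14551 peaks in all, against 63045 and 58925 in DMSO.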

How the results depend on the processing

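Shares kept their direction under all alternatives run, except that the NPC difference became -0.0978 percentage points (0.850 times the DMSO mean) with coverage times gene span. The count of members called moved by over 1.5 times in these cases: TT-SLAM-seq at 6 h had 0 with a mean of at least 5 FPKM and 3 with voom on recovered reads, and at 24 h 0 and 17; the shERV dTAG-13 comparison had 10 with no filter and 26 after centring each library on its median gene; and dTAG-13 with Dox against dTAG-13 had 7 with no filter. The cause was not tested. Centring also changed the split of higher and lower calls to 22 against 3 at 24 h, to 13 against 17 at 96 h and to 14 against 13 in NPCs. Leaving out 1 library at a time gave 6 to 13 calls in TT-SLAM-seq at 24 h, 14 to 17 in the shERV dTAG-13 comparison and 8 to 14 with Dox against dTAG-13.

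Same-numbered libraries deviated together weakly or not at all (r -0.205 to 0.177), which cannot exclude that the numbers pair the samples. With the replicate number as a block the counts were 14, 29, 31 and 31 at 2, 6, 24 and 96 h, 0, 1 and 8 in TT-SLAM-seq, 18, 11 and 0 in the shERV line, and 29 and 27 in parental mESCs and NPCs. In TT-SLAM-seq the call of mt-Nd4 at 24 h was lost under the block (adjusted p = 0.0636). In the shERV line mt-Rnr1 and mt-Co1 lost their calls with no filter (limma adjusted p = 0.0619 and 0.128).

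With 3 libraries a group the exact test of a share cannot reach the threshold. TPM keep no depth, low tRNA genes rest on few reads, and no spike-in sets an absolute scale.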
